A study of Mus musculus with 16 samples.

Results

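The comparison described here set macrophages given dexamethasone (Dex) before lipopolysaccharide (LPS) against macrophages given vehicle before LPS, after 6 h of LPS. Its members are 4 of the 16 arrays of the series, chosen by their sample labels. They comprise 2 arrays labelled LPS stimulated and 2 labelled Dex treated and LPS stimulated, all of the 6 h experiment. Every culture was of macrophages grown from bone marrow. The mice were wildtype C57BL/6J males aged 10 weeks. Cells received ethanol, the vehicle, or 1 µM Dex overnight, and LPS was then added to both groups. So LPS is shared by both groups, and Dex preceded LPS rather than following it. The labels used here give no LPS dose. Arrays of 1 group are called technical replicates there, so p-values cover differences between arrays only, which may be technical. The 6 h experiment also held 2 vehicle and 2 Dex arrays without LPS, which shared the estimate of spread and gave unstimulated levels. A separate experiment with 3 h of LPS carried labels for the same 4 treatments on other arrays, of which only the LPS and Dex plus LPS arrays are compared here. The remaining arrays of that experiment shared its normalization, probe filter and estimate of spread.

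Dex is a synthetic ligand of the glucocorticoid receptor, a nuclear receptor that binds DNA when occupied and can also act at sites held by NF-kB and AP-1 factors. LPS is a cell wall component of Gram-negative bacteria. It is sensed by Toll-like receptor 4, which signals through the adaptors MyD88 and TRIF to NF-kB, to MAP kinases and AP-1, and to IRF3, the factor that switches on the interferon beta gene. Secreted interferon beta then acts back on the macrophages through STAT factors and raises antiviral genes. The title of the series names the glucocorticoid receptor and Toll-like receptor 4 signalling as its subject.

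The 6 h arrays detected 10407 to 11281 of 25697 probes each. All 8 measured macrophage markers were above background on all 4 arrays compared, among them Adgre1 (F4/80), Csf1r, Lyz2 and Cd14, and their summed linear level was 185260 to 195897 with LPS and 201653 to 204757 with Dex plus LPS. Lyz2 and Cd14, which were saturated, make up most of that sum, so it can show little change, and Fcgr1 of this list was called lower. Of 9 neutrophil markers 8 were detected on all 4 arrays, with summed levels of 45103 and 47758 with LPS and of 49608 and 43955 with Dex plus LPS. S100a8 made up most of that sum, Cxcr2 was not above background, and 0 of the 8 tested neutrophil markers passed limma's adjusted p of 0.05 at 2-fold, as 3.79% of all genes did. Of these markers 4 had an unadjusted p under 0.05, and Ltf differed by -0.79 ± 0.21 (log2, adjusted p = 0.0467). None of 6 dendritic cell, 7 T and NK cell, 6 mast cell, 4 B cell and 4 erythroid markers was detected on all 4 arrays. Of the fibroblast markers Dcn was detected on all 4, and of the endothelial markers Vwf and Eng. The haemoglobin gene Hba-a1 stood at 9.24 on LPS replicate 1 and at 4.88, 4.90 and 5.03 on the other 3 arrays (log2). The part of these cell types in the results was not tested. In these bulk samples fewer cells of a type and less RNA per cell cannot be told apart.

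Another deposited table holds 6 h values under the authors' cubic spline normalization, and none of the changes reported below was called in it. Its rank correlation with the unnormalized table was 0.863 to 0.895 per array, and whether it holds the same arrays could not be settled. There the linear signal of Fkbp5, a standard glucocorticoid target, was 424 and 381 with LPS and 427 and 361 with Dex plus LPS. Ifnb1 was 374 and 389 with LPS and 307.5 and 297 with Dex plus LPS, lower but by far less than below. Fitted with limma, that table gave 0 genes higher and 0 lower, with 1499 genes at an unadjusted p under 0.05. The authors' processed value table, by contrast, tracked the unnormalized 6 h table (Pearson correlation 0.960 to 0.982 across probes, centred per probe) and gave 33 genes higher and 134 lower. All values below come from the unnormalized 6 h table.

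Start site windows of 5 called genes are shown here as examples of motifs bound by the factors named above. Sequences are RefSeq windows on GRCm38.p6, of which the 250 bases before the start are printed 5′ to 3′ on the gene's strand, with matches in capitals. They were picked, after the matches were seen, as windows that hold one. The Ifnb1 window (chr4:88522795-88523044, minus strand) holds an NF-kB site consensus from -116 to -107 before the start site. The Il6 window (chr5:30012864-30013113, plus strand) holds an NF-kB site consensus from -44 to -35 and the AP-1 motif TGANTCA from -249 to -243. In the Isg15 window (chr4:156200819-156201068, minus strand) 3 overlapping copies of the core of the interferon response element (GAAA repeated after 2 further bases) run from -78 to -57. The Mmp13 window (chr9:7272264-7272513, plus strand) holds TGANTCA from -35 to -29. These 4 genes fell with Dex. Trem1 rose, and its window (chr17:48232489-48232738, plus strand) holds ACANNNTGT, the palindromic core of a glucocorticoid response element, from -43 to -35.
Ifnb1: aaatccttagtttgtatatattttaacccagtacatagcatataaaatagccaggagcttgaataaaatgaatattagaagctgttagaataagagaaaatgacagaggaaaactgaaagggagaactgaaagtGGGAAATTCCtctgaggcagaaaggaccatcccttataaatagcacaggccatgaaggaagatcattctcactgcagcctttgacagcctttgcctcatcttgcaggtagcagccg
Il6: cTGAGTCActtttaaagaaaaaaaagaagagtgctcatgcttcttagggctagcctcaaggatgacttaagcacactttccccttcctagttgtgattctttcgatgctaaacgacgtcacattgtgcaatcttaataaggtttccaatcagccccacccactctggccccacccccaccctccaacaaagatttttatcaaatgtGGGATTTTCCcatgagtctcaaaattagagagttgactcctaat
Isg15: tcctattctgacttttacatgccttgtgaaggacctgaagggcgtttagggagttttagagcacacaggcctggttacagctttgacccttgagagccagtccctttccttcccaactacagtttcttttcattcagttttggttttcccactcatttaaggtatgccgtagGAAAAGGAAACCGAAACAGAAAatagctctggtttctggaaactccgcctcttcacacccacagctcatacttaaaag
Mmp13: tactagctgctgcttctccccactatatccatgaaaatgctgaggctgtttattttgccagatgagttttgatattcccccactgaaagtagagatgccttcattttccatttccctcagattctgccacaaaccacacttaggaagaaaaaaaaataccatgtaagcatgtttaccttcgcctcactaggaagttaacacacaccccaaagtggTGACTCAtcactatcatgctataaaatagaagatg
Trem1: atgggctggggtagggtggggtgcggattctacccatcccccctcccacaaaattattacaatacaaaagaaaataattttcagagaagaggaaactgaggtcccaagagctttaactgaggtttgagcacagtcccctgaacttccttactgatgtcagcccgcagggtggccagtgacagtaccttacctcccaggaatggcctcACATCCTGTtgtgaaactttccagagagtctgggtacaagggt

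Across all genes the same motifs were counted on both strands in windows of 300 bases, 250 before and 50 after the start. TGANTCA stood in 13% of 192 windows of lowered genes, in 9.38% of 128 windows of raised genes and in 5.5% of 8292 windows of all genes tested. The interferon response core stood in 8.33%, 3.12% and 3.36% in the same order. ACANNNTGT stood in 4.69% of lowered, 7.03% of raised and 4.22% of all tested windows, and the NF-kB site consensus in 4.69%, 4.69% and 5.2%. Over all 32851 windows of the table the shares were 7.81% for TGANTCA, 3.44% for the interferon response core, 6.85% for ACANNNTGT and 4.51% for the NF-kB site consensus. RefSeq windows were matched for 89 of the 103 raised, 151 of the 192 lowered and 6443 of the 7791 tested genes. A gene with several start sites gave several windows, each counted, so these are shares of windows and not of genes. Most of the strongest calls hold no match: the windows of Tsc22d3, Klhl6, Fkbp5, Il1r2 and Per1 hold none of the 4 motifs, that of Klf9 holds TGANTCA but not ACANNNTGT, and that of Ptx3, which rose, holds 2 NF-kB site matches. A match describes the letters of a window and says nothing of binding.

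Dex before LPS left most genes near their LPS level, and a few percent of them passed the 2-fold call used here. All levels and differences are log2 of normalized signal, given with the standard error (SE) of the limma fit and n = 2 arrays per group. A gene was called at a Benjamini-Hochberg adjusted p under 0.05 and at least 2-fold. With Dex plus LPS 103 of 7791 genes were higher (1.32%) and 192 were lower (2.46%), 3.79% in all. By limma without the 2-fold cut, 613 genes had an adjusted p under 0.05 and 1828 an unadjusted p under 0.05. The median difference over all genes was 0.06, and 79.6% of genes lay within 0.5 of 0. Arrays within a group had a median residual SD of 0.202. At 3-fold or more 19 genes were higher and 49 lower. For 26 raised and 26 lowered genes the lower group was not above background on any array, or the higher group was saturated, and the fold is a lower bound written "at least". The arrays of the groups did not overlap for 62.5% of all genes tested, so a lack of overlap by itself is common here.

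The counts were smaller with 1 of the 4 arrays left out and moved with scaling. Leaving out LPS replicate 1 gave 60 higher and 119 lower, and leaving out LPS replicate 2 gave 54 and 112. Dropping Dex plus LPS replicate 1 gave 45 and 107, and dropping Dex plus LPS replicate 2 gave 37 and 106. Between 37 and 50 of the 103 raised genes and between 102 and 116 of the 192 lowered genes were called again in these 4 fits. Median scaling of the arrays in place of quantile normalization moved the median difference of all genes to 0.20 and gave 204 higher and 152 lower, so that 57.3% of calls were higher against 34.9%. In the authors' processed value table that share was 19.8%.

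**Figure D1:**
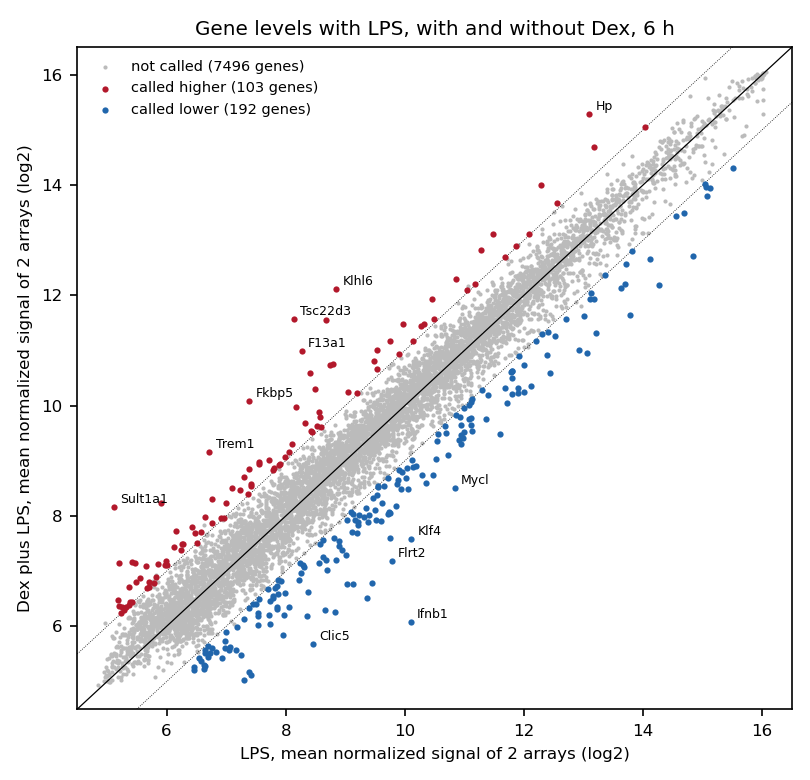
Mean log2 level of each of 7791 genes with LPS (horizontal) and with Dex plus LPS (vertical), 2 arrays per group, with the 103 genes called higher and the 192 called lower coloured. Tsc22d3, Klhl6 and Fkbp5 lie far above the diagonal and Ifnb1, Mycl and Klf4 far below it.

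Genes that the glucocorticoid receptor is known to induce were among the highest risers. Tsc22d3, which encodes the leucine zipper protein GILZ, a restrainer of NF-kB and AP-1, stood at 8.35 and 7.91 on the LPS arrays and at 11.74 and 11.40 on the Dex plus LPS arrays. Both LPS arrays were far below both Dex plus LPS arrays and also below the 10.96 and 11.04 of the unstimulated arrays, and the difference was 3.44 ± 0.20 (10.8-fold, adjusted p = 2.22e-05). Fkbp5, a co-chaperone that binds the receptor, stood at 7.43 and 7.34 with LPS and at 10.15 and 10.03 with Dex plus LPS. The groups did not overlap, and the difference was 2.70 ± 0.17 (6.5-fold, adjusted p = 2.4e-05). Klf9, a Kruppel-like transcription factor, was at 8.98 and 7.84 with LPS and at 10.49 and 10.71 with Dex plus LPS. The LPS arrays lay far apart but below both Dex plus LPS arrays, and the difference was 2.19 ± 0.32 (adjusted p = 0.0029). Dusp1, the phosphatase that switches off p38 and JNK, rose from 13.24 and 13.10 to 14.59 and 14.78 (1.51 ± 0.17, adjusted p = 0.000608). Il1r2, the decoy receptor that traps interleukin 1, was not above background with LPS (5.19 and 5.22), stood at 7.06 and 7.23 with Dex plus LPS, and was at least 1.99-fold higher (adjusted p = 0.000174).

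Per1, a repressor of the circadian clock, stood at 7.86 and 8.48 with LPS and at 9.88 and 10.05 with Dex plus LPS (1.80 ± 0.32, adjusted p = 0.00877). It lost its call without LPS replicate 1 or either Dex plus LPS array (1.49 to 2.11). Of all genes 1.32% were called higher and 2.46% lower. Of 21 tested genes of a list of known glucocorticoid-induced genes, these 6 rose (Tsc22d3, Fkbp5, Klf9, Il1r2, Per1 and Dusp1) and 2 fell. The list's median difference was 0.44, against 0.06 over all genes. Those that fell were Zfp36, which encodes tristetraprolin, a protein that destabilises cytokine mRNA, and Klf4, which encodes a Kruppel-like factor. Zfp36 went from 13.68 and 13.71 with LPS to 12.08 and 12.32 with Dex plus LPS (-1.49 ± 0.18, adjusted p = 0.000839). Klf4 went from 10.00 and 10.21 to 7.59 and 7.56 (-2.53 ± 0.32, adjusted p = 0.0013). The metallothionein gene Mt1 (0.81 ± 0.16, adjusted p = 0.014) and Mertk, a receptor for apoptotic cells (0.61 ± 0.17, adjusted p = 0.06), were not called. The receptor's own gene Nr3c1 differed by -0.48 ± 0.21 (adjusted p = 0.194) and was not above background with Dex plus LPS. Of 13 genes for the receptor and its co-regulators, Tsc22d3 and Fkbp5 alone were called, against 3.79% called over all genes. The receptor's chaperone genes Hsp90aa1 (0.10 ± 0.23) and Fkbp4 (0.63 ± 0.20) were not called.

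Klhl6, which encodes a substrate adaptor of a cullin ubiquitin ligase known in B cells, was second to Tsc22d3 in size. It stood at 8.80 and 8.90 with LPS and at 12.13 and 12.10 with Dex plus LPS. Arrays of a group lay close together, the groups lay far apart, and the difference was 3.27 ± 0.16 (9.62-fold, adjusted p = 7.44e-06). Sult1a1, a phenol sulfotransferase gene, was not above background with LPS (5.12 and 5.10) and stood at 8.11 and 8.22 with Dex plus LPS (at least 4.04-fold higher, adjusted p = 2.4e-05). Rassf2, which encodes a Ras-association protein, went from 8.62 and 8.37 to 10.13 and 10.48 (1.81 ± 0.20). Rgcc, a regulator of the cell cycle, went from 8.78 and 8.72 to 10.59 and 10.87 (1.98 ± 0.19). Rassf2 and Rgcc differ in their unstimulated level: Rassf2 was lower with LPS than without (10.31 and 9.98), whereas Rgcc stood at 8.32 and 8.49 without LPS.

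Genes of a mixed list of acute-phase and other secreted defence proteins rose in part. The list was written with earlier results of these data known, and Ptx3, F13a1, Hp and Orm2 are also among the genes raised most. Of 15 tested members 5 rose, 0 fell and the median difference was 0.74, against 1.32% raised and a median of 0.06 over all genes. Ptx3, the long pentraxin that binds microbes, stood at 8.67 on both LPS arrays and at 11.49 and 11.62 with Dex plus LPS (2.89 ± 0.17, 7.4-fold, adjusted p = 2.22e-05). F13a1, the gene of factor XIII's catalytic A chain in clotting, went from 8.27 and 8.26 to 10.95 and 11.03 (2.72 ± 0.22, adjusted p = 9.7e-05). Hp, for the haemoglobin scavenger haptoglobin, went from 12.92 and 13.27 to 15.18 and 15.39 (2.19 ± 0.19, adjusted p = 0.000177). In none of these 3 genes did the arrays of the groups overlap, which also holds for 62.5% of all genes tested. Orm2, an orosomucoid gene (1.96 ± 0.19), and Chil3, for a chitinase-like lectin (1.63 ± 0.23), were the other risers. Lcn2, which encodes an iron-siderophore binding protein, was saturated with Dex plus LPS and at least 1.88-fold higher (adjusted p = 0.0212). Saa3, Lyz2 and Slpi were saturated in both groups, where no change can be seen. S100a8 (0.10 ± 0.17) and S100a9 (-0.04 ± 0.18), whose products form calprotectin, were not called.

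**Figure D2:**
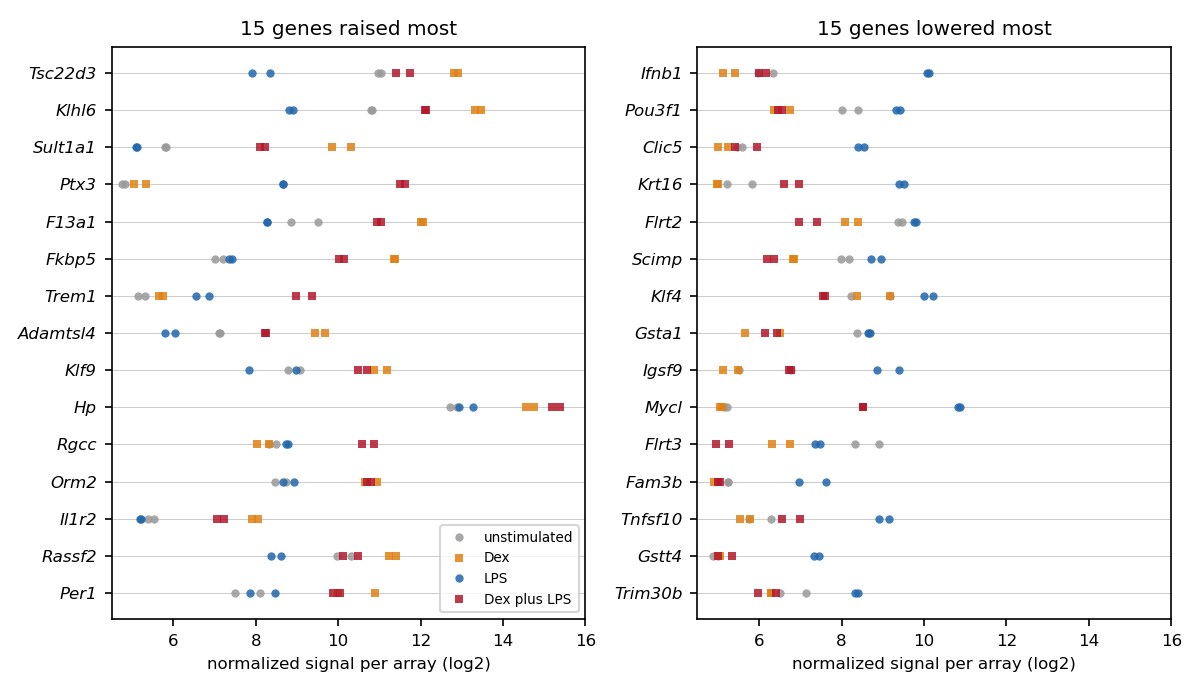
Normalized signal (log2) on each of the 8 arrays of the 6 h experiment for the 15 genes raised most and the 15 lowered most, with 2 points for each of the unstimulated, Dex, LPS and Dex plus LPS groups. Ifnb1 on the Dex plus LPS arrays (6.16 and 6.00) sits beside its unstimulated points (5.96 and 6.33), whereas Ptx3 on the Dex plus LPS arrays lies above all 3 other groups.

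The largest fall was that of Ifnb1, the interferon beta gene. It stood at 10.12 and 10.08 on the LPS arrays and at 6.16 and 6.00 on the Dex plus LPS arrays. The latter are within the range of the unstimulated arrays (5.96 and 6.33), and the difference was -4.02 ± 0.19 (16.2-fold lower, adjusted p = 7.44e-06). Without background correction the difference was -2.65 (adjusted p = 2.05e-06), and in the authors' processed value table -2.79. Pou3f1, a POU-domain transcription factor gene, went from 9.31 and 9.42 to 6.56 and 6.47 (-2.85 ± 0.20, 7.19-fold lower). Mycl, a MYC family gene, went from 10.81 and 10.87 to 8.51 on both arrays (-2.33 ± 0.16), still above its unstimulated 5.14 and 5.22. Ifnb1 thus lay within its unstimulated range with Dex plus LPS, and Mycl did not.

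Genes of more varied function made up the rest of the 15 largest falls. Krt16, a keratin gene, fell by 2.66 (SE 0.23) and Igsf9, of the immunoglobulin superfamily, by 2.37 (SE 0.36). The leucine-rich repeat transmembrane genes Flrt2 (-2.60 ± 0.20) and Flrt3 (at least 2.66-fold lower) fell together. Scimp, a transmembrane adaptor that recruits signalling kinases, fell by 2.56 (SE 0.18). The glutathione S-transferase genes Gsta1 (-2.37 ± 0.26) and Gstt4 (at least 2.6-fold lower) fell as well. Clic5, of the chloride intracellular channel family, was at least 5.47-fold lower, and Fam3b, for a secreted protein, at least 2.44-fold lower. Tnfsf10, which encodes the death ligand TRAIL, fell by 2.26 (SE 0.23), and Trim30b, a TRIM family gene, by 2.16 (SE 0.23). Adjusted p-values of these 11 genes ran from 4.44e-05 for Scimp to 0.00355 for Igsf9. Igsf9 alone of them lost its call when an array was left out, without LPS replicate 2 (-2.63 to -2.11).

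Cytokine genes were lower with Dex across the list. Against their unstimulated levels they varied, with Il6 still above and Il1rn below. Of 21 tested ligand genes 12 fell and 0 rose, all 21 differences were below 0, and the median was -1.18, against 2.46% lowered and a median of 0.06 over all genes. Il6, the main driver of the hepatic acute phase, stood at 11.95 and 11.87 with LPS and at 10.09 and 10.36 with Dex plus LPS. The groups did not overlap, the difference was -1.68 ± 0.18 (3.21-fold lower, adjusted p = 0.000472), and the unstimulated arrays stood at 5.48 and 5.29. Il23a, for the p19 subunit of interleukin 23, went from a mean of 7.97 to one of 6.20 (-1.77 ± 0.18). Il12a, for the p35 subunit of interleukin 12, went from 10.86 and 11.02 to 9.70 and 9.61 (-1.29 ± 0.17). Cytokines that dampen inflammation fell too. Il10, the main such cytokine of macrophages, went from 7.01 and 7.13 to 5.49 and 5.75, which is not above background (at least 2.08-fold lower, adjusted p = 0.00154). Il1rn, for the antagonist of the interleukin 1 receptor, went from 13.19 and 13.21 to 11.14 and 11.48 (-1.89 ± 0.19), below its unstimulated 12.98 and 12.89.

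Other called ligands were Il15, which sustains NK cells (-1.47 ± 0.20), Inhba, an activin subunit gene (-1.58 ± 0.24), Osm (-1.34 ± 0.24), Il1a (-1.28 ± 0.27), the granulocyte growth factor gene Csf3 (-1.18 ± 0.27) and Il27 (-1.08 ± 0.25). Several of these calls were lost with 1 array fewer. Il27 (-1.18 to -0.97), Il1a (-1.35 to -1.21) and Osm (-1.43 to -1.25) lost their calls without any 1 of the 4 arrays compared. Csf3 lost its call without LPS replicate 2 or either Dex plus LPS array (-1.65 to -0.70), and Inhba without Dex plus LPS replicate 1 (-1.98 to -1.18). In those 4 fits 7 to 9 of the 21 genes were called lower, and 8 were with no background correction. Tnf was saturated on the LPS arrays (15.65 and 15.72), stood at 14.87 and 14.94 with Dex plus LPS and was at least 1.72-fold lower (adjusted p = 0.0354, under the fold required). Il1b was also saturated with LPS and at least 1.32-fold lower (adjusted p = 0.172), and Il18 differed by -0.77 ± 0.16.

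**Figure D3:**
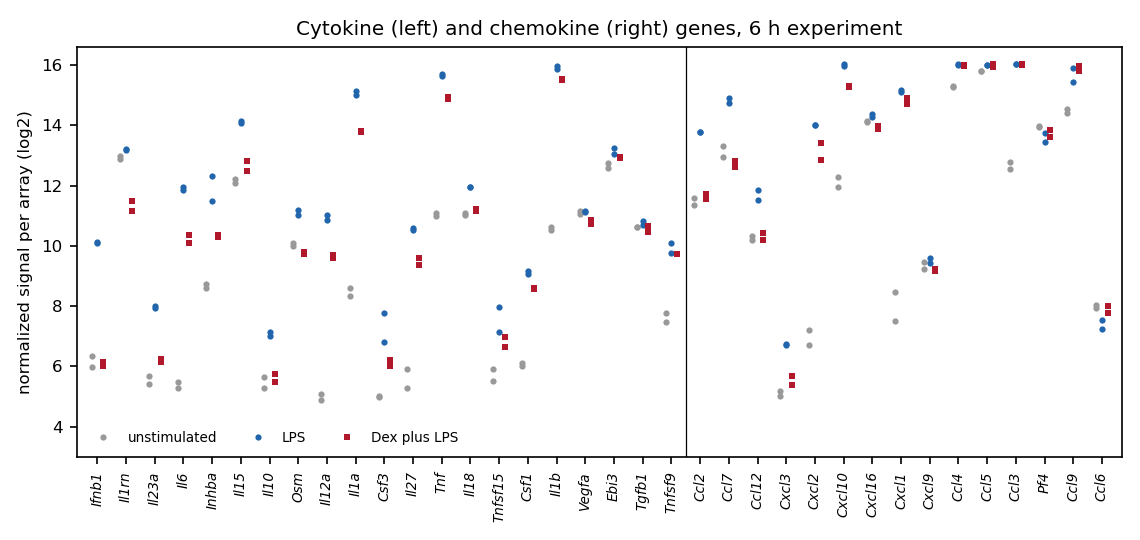
Normalized signal (log2) on each array of 21 cytokine ligand genes (left of the line) and 15 chemokine genes (right), each sorted by difference, for unstimulated, LPS and Dex plus LPS arrays. Ifnb1 returns to its unstimulated range with Dex, Il6 lies between, and Tnf, Il1b, Ccl3, Ccl4 and Ccl5 sit near the top of the scale, where signals were taken as saturated.

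Among 21 tested cytokine receptor genes Il1r2 rose and 0 fell, a share near the 3.79% called over all genes. Those next in size were not called, namely Tgfbr1, a receptor of transforming growth factor beta (1.02 ± 0.30, adjusted p = 0.0637), Il10ra (-0.67 ± 0.21, adjusted p = 0.0816) and Csf3r (-0.65 ± 0.19, adjusted p = 0.0686).

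Chemokine genes fell in part. Of 15 tested 4 fell and 0 rose, with a median of -0.35, against 2.46% lowered and a median of 0.06 over all genes. Ccl2, the main attractant of monocytes, stood at 13.78 on both LPS arrays and at 11.57 and 11.73 with Dex plus LPS. The unstimulated arrays stood at 11.60 and 11.34, near the Dex plus LPS arrays, and the difference was -2.13 ± 0.23 (4.37-fold lower, adjusted p = 0.000526). Ccl7, which shares its receptor, went from 14.76 and 14.91 to 12.81 and 12.61 (-2.13 ± 0.19, adjusted p = 0.000203), and Ccl12 from 11.53 and 11.84 to 10.43 and 10.20 (-1.37 ± 0.18). The neutrophil attractant Cxcl3 was at least 1.64-fold lower (adjusted p = 0.00469), and lost its call without either LPS array or Dex plus LPS replicate 2 (-1.35 to -1.06). Cxcl2 differed by -0.87 ± 0.23 (adjusted p = 0.0468) and Cxcl1 by -0.35 ± 0.30. The interferon-induced Cxcl10 was saturated with LPS and at least 1.64-fold lower (adjusted p = 0.134). Ccl3, Ccl4 and Ccl5 were saturated in both groups, so a change in them could not be seen. Among 6 chemokine and formyl peptide receptor genes Cxcr3 fell (-1.06 ± 0.24), against 2.46% lowered over all genes. Its call was lost without any 1 of the 4 arrays (-1.16 to -0.97).

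Genes of the machinery that senses LPS gave no call, and the 3.79% called over all genes would be less than 1 gene in a list of this size. Of 17 genes for the LPS receptor and its adaptors 0 were called in either direction by limma and 3 had an unadjusted p under 0.05, with a median of 0.05. Tlr4 itself stood at 9.18 and 9.22 with LPS and at 8.92 and 8.88 with Dex plus LPS (-0.30 ± 0.19, adjusted p = 0.373). The adaptor genes Myd88 (-0.33 ± 0.18), Ticam1, which encodes TRIF (-0.22 ± 0.19), and Ticam2 (-0.45 ± 0.18) were not called, and the co-receptor gene Cd14 was saturated. The kinase gene Irak2 had the largest difference of the list (-0.75 ± 0.22, adjusted p = 0.0604). Of 15 genes for NF-kB subunits and inhibitors 0 were called by limma and Rel alone had an unadjusted p under 0.05, with a median of 0.01. Nfkbia, for the inhibitor IkBα, a textbook glucocorticoid target, stood at 13.81 and 13.84 with LPS and at 13.73 and 13.95 with Dex plus LPS, which overlap (0.02 ± 0.17). Rel, for the subunit c-Rel, differed by -0.98 ± 0.19 (adjusted p = 0.0132, 1.97-fold), just under the fold required, and Tnfaip3, for the deubiquitinase A20, by 0.39 ± 0.18. Rela (-0.24 ± 0.20) and Nfkb2 (0.01 ± 0.18) were not called. With 2 arrays per group a p that misses the threshold does not show that a gene was unaffected.

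Other pattern recognition receptors moved in both directions, with 3 of 22 higher and 2 lower, against 1.32% and 2.46% over all genes, and a median of -0.30. Trem1, an activating receptor that amplifies Toll-like receptor responses, stood at 6.87 and 6.56 with LPS and at 8.97 and 9.36 with Dex plus LPS. The groups lay apart and the difference was 2.45 ± 0.20 (5.45-fold, adjusted p = 0.000108). Tlr2, the receptor of bacterial lipoproteins, rose by 1.00 ± 0.18, just at the fold required, and lost its call without any 1 of the 4 arrays (0.93 to 1.08). The soluble receptor Ptx3, described above, also belongs to this list. Clec7a, the receptor of fungal beta-glucan, went from 9.49 and 9.53 to 7.93 and 7.92 (-1.59 ± 0.17, adjusted p = 0.000526). Tlr3, the sensor of double-stranded RNA, fell by 1.05 (SE 0.16) and lost its call without Dex plus LPS replicate 1 (-1.13 to -0.98). Nod1 differed by -0.91 ± 0.20 (adjusted p = 0.0252) without reaching 2-fold.

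Feedback regulators showed no common direction. Of 13 MAP kinase phosphatase and SOCS genes Dusp1 rose and Socs2, Cish and Dusp8 fell, against 3.79% called over all genes. Socs2 was at least 1.69-fold lower and not above background with Dex plus LPS, and it lost its call without LPS replicate 1 or either Dex plus LPS array (-1.30 to -1.01). Cish (-1.03 ± 0.22, -1.17 to -0.90) and Dusp8 (-1.29 ± 0.31, -1.41 to -1.16) lost theirs without any 1 of the 4 arrays, and Dusp8 also with the replicate number as a block (adjusted p = 0.0541). Socs3, a brake on interleukin 6 signalling, differed by -0.19 ± 0.24. Among 8 regulators of cytokine mRNA decay Zfp36 fell and Tia1, a translational silencer, was at least 2.04-fold higher, a call lost without LPS replicate 1 or Dex plus LPS replicate 2 (1.10 to 1.30). Zfp36l1, a relative of Zfp36, differed by 0.67 ± 0.17 (adjusted p = 0.0377).

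Immediate-early and related transcription factor genes fell in 5 of 15 tested cases and rose in 0, with a median of -0.39, against 2.46% lowered and a median of 0.06 over all genes. Egr2, a zinc finger factor of the EGR family, stood at 9.75 and 9.77 with LPS and at 7.71 and 7.48 with Dex plus LPS (-2.16 ± 0.18, adjusted p = 0.000133). These lie below its unstimulated 9.33 and 9.18. Egr1 went from 11.71 and 11.88 to 10.10 and 10.33 (-1.58 ± 0.23), and lost its call without Dex plus LPS replicate 1 (-1.69 to -1.46). Atf3, an LPS-induced repressor, went from 13.15 and 12.86 to 11.55 and 11.72 (-1.38 ± 0.19), and Mycl and the POU-domain gene Pou3f1 complete the group. Both were also among the 15 genes lowered most, and the list was written with earlier results of these data known. Its share of falls is therefore a description and no test. The AP-1 genes themselves were not called, with Jun at 0.40 ± 0.23, Fos at 0.02 ± 0.19 and Junb at -0.49 ± 0.22. Of 12 IRF and STAT genes Stat4 fell (-1.49 ± 0.22), against 2.46% lowered over all genes. Stat4 lost its call without Dex plus LPS replicate 1 (-1.65 to -1.32). With the mean of a gene's detected probes 3 of the 12 were called lower, and by the authors' processed values 2. Irf1 (-0.91 ± 0.20, adjusted p = 0.0212) and Stat3 (-0.83 ± 0.21, adjusted p = 0.0381) passed the p threshold without reaching 2-fold. Irf3, the factor upstream of Ifnb1, differed by 0.30 ± 0.20. Of 6 Kruppel-like factor genes Klf9 rose and Klf4 fell, against 3.79% called over all genes, and Klf2 stood at 0.00 ± 0.20.

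Antiviral interferon-stimulated genes were lower with Dex in all 36 tested cases under quantile normalization, by 0.18 to 2.11. Of these 9 were called lower, against 2.46% lowered over all genes. The median was -0.63 against 0.06 over all genes, and 0 were called higher. Mx1, a GTPase that blocks influenza virus, stood at 11.58 and 11.62 with LPS and at 9.29 and 9.68 with Dex plus LPS (-2.11 ± 0.20, 4.32-fold lower, adjusted p = 0.00027). Ch25h, for the enzyme that makes 25-hydroxycholesterol, an antiviral oxysterol, went from 13.27 and 12.85 to 10.99 and 10.90 (-2.11 ± 0.28, adjusted p = 0.00182). Isg20, an exonuclease gene, went from 11.78 and 11.66 to 10.16 and 9.94 (-1.67 ± 0.19). In these 3 genes the groups did not overlap, which also holds for 62.5% of all genes tested. Their Dex plus LPS arrays stayed above the unstimulated mean. Mx2 (-1.47 ± 0.17), Ifi204, a DNA sensor gene (-1.32 ± 0.19), Isg15, a ubiquitin-like modifier (-1.25 ± 0.21), Ifit2 (-1.21 ± 0.27), Cmpk2 (-1.18 ± 0.17) and Oasl1 (-1.09 ± 0.17) also fell. At the other end, Oasl2 (-0.18 ± 0.17), Bst2 (-0.19 ± 0.29) and Rsad2, for viperin (-0.28 ± 0.16), were not called, and Rsad2 was saturated with LPS. The largest fall among these genes was 4.32-fold, that of Mx1, whereas Ifnb1 itself was 16.2-fold lower. Ifnb1 with Dex plus LPS lay in its unstimulated range near background, so the size of its fold is uncertain. Its log2 difference was -2.65 without background correction and -2.79 by the authors' processed values.

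The 9 calls among antiviral genes became 8 and 7 without LPS replicate 1 and 2, and 7 and 5 without Dex plus LPS replicate 1 and 2. Ifit2 lost its call in each of these fits (-1.33 to -1.10). Oasl1 lost it without LPS replicate 1 or either Dex plus LPS array (-1.11 to -1.08), Isg15 without LPS replicate 2 or Dex plus LPS replicate 2 (-1.39 to -1.11), and Ifi204 without Dex plus LPS replicate 2 (-1.52 to -1.12). By the authors' processed values 11 of the 36 genes were lower.

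Genes of inflammatory enzymes fell singly. Ptgs2, which encodes the inducible cyclooxygenase, stood at 10.74 and 10.70 with LPS and at 9.15 and 9.05 with Dex plus LPS (-1.62 ± 0.17, 3.07-fold lower, adjusted p = 0.000496). It was the only call among 13 prostaglandin and leukotriene genes, against 3.79% called over all genes. Ptges, the synthase downstream of Ptgs2, differed by 0.09 ± 0.24. Nos2, the inducible nitric oxide synthase gene, went from 9.39 and 9.68 to 8.36 and 8.40 (-1.16 ± 0.19). It was the only call among 13 nitric oxide and arginine genes, against the same 3.79% over all genes. The call of Nos2 was lost without LPS replicate 2 or either Dex plus LPS array (-1.30 to -1.01). Among 15 matrix protease genes 3 fell and 2 rose, against 2.46% and 1.32% over all genes. Mmp13, a collagenase, went from 14.17 and 14.38 to 12.05 and 12.32 (-2.09 ± 0.21, 4.25-fold lower, adjusted p = 0.000406). The unstimulated arrays stood at 11.86 and 11.74, just below the Dex plus LPS arrays. Serpinb2, a plasminogen activator inhibitor (-1.73 ± 0.21), and Plaur, the receptor of urokinase (-1.33 ± 0.20), also fell, and Plaur lost its call without Dex plus LPS replicate 2 (-1.44 to -1.22). Adamtsl4, for a secreted matrix protein, was at least 4.24-fold higher and not above background with LPS. Mmp8, the neutrophil collagenase gene, rose by 1.41 ± 0.31 and lost its call without any 1 of the 4 arrays (1.25 to 1.58). Mmp9 differed by -0.99 ± 0.18 (adjusted p = 0.00968, 1.99-fold).

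Surface molecules for T cell contact were lower with Dex in part. Of 15 class II MHC and co-stimulatory genes 4 fell and 0 rose, with a median of -0.49, against 2.46% lowered and a median of 0.06 over all genes. Cd86, a ligand of CD28, stood at 11.27 and 11.44 with LPS and at 9.76 on both Dex plus LPS arrays (-1.59 ± 0.22, adjusted p = 0.00232). Its relative Cd80 differed by 0.67 ± 0.21 in the other direction (adjusted p = 0.0848). Tnfsf4, which encodes OX40 ligand (-1.51 ± 0.19), and Cd83 (-1.39 ± 0.20) fell. Ciita, the master activator of class II genes, was at least 1.6-fold lower, not above background with Dex plus LPS, and lost its call without LPS replicate 1 or Dex plus LPS replicate 1 (-1.37 to -1.09). The class II genes H2-Ab1 (0.05 ± 0.21) and H2-Eb1 (0.06 ± 0.18) were not called. Cd40 (-0.80 ± 0.19, adjusted p = 0.033) and Cd274, for PD-L1 (-0.79 ± 0.18, adjusted p = 0.0273), passed the p threshold under 2-fold.

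In the class I pathway 2 of 16 genes fell, against 2.46% over all genes, namely Tapbp, for tapasin (-1.01 ± 0.24), and Psme2, a proteasome activator (-1.01 ± 0.23). Both sat at the fold required and lost their calls without any 1 of the 4 arrays, with ranges of -1.23 to -0.79 and -1.12 to -0.90. Nlrc5, the activator of class I genes, differed by -0.92 ± 0.17 (adjusted p = 0.00973). Among 13 adhesion genes Vcam1, the ligand of integrin VLA-4, went from 9.72 and 9.75 to 8.04 and 8.09 (-1.67 ± 0.22, adjusted p = 0.00162). Flrt2 was the other call, against 2.46% lowered over all genes. Icam1 differed by 0.62 ± 0.20 in the other direction (adjusted p = 0.0923).

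Of 21 phagocytosis and efferocytosis genes Fcgr1, the high-affinity IgG receptor gene, fell (-1.03 ± 0.22) and 0 rose, a share near the 2.46% lowered over all genes. Its call was lost without LPS replicate 2 or either Dex plus LPS array (-1.26 to -0.80). Axl, which like Mertk binds apoptotic cells through Gas6, differed by -0.83 ± 0.25 (adjusted p = 0.0757), opposite in sign to Mertk. Of 11 complement genes Cd55, for decay-accelerating factor, which protects cells from complement, went from 6.22 and 6.09 to 7.76 and 7.71 (1.58 ± 0.23, adjusted p = 0.00279). Cd55 was the only call of that list, against 3.79% called over all genes. The C1q genes C1qa (0.20 ± 0.17), C1qb (0.26 ± 0.17) and C1qc (0.38 ± 0.26) were not called. In a list of 11 alternative activation genes Chil3 rose, whereas Klf4, Clec7a and Socs2 fell, against 3.79% called over all genes. The mannose receptor gene Mrc1 (0.36 ± 0.38) was not called.

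Lists of metabolic, growth, clock and survival genes held 0 to 3 called members each, against 3.79% called over all genes. Their shares were unlike, from 0 of 17 glycolysis and hypoxia genes to 2 higher and 1 lower of 10 clock genes. Of 17 glycolysis and hypoxia genes 0 were called by limma and 4 had an unadjusted p under 0.05, with Gapdh at 0.07 ± 0.17, Ldha at 0.19 ± 0.17 and Hk1, for a hexokinase, at -0.71 ± 0.17 (adjusted p = 0.0352). Ch25h was the only call among 13 cholesterol genes, and the synthesis genes Dhcr7 (1.04 ± 0.31, adjusted p = 0.0724) and Sqle (0.84 ± 0.30, adjusted p = 0.122) did not pass. Of 23 cell cycle genes 3 fell, the inhibitor gene Cdkn1c (-1.84 ± 0.20) and the cyclin genes Ccnd2 (-1.47 ± 0.28) and Ccne1 (-1.27 ± 0.24). Ccnd2 lost its call without any 1 of the 4 arrays (-1.65 to -1.30), and Ccne1 without either LPS array or Dex plus LPS replicate 1 (-1.58 to -0.96). The replication factor E2f1 differed by 0.93 ± 0.18 (adjusted p = 0.0125). Among 10 clock genes Per1 and Per2 rose and Nr1d2, for the repressor REV-ERBβ, was at least 1.45-fold lower. Per2 (1.11 ± 0.22) lost its call without either LPS array or Dex plus LPS replicate 1 (0.87 to 1.35), and Nr1d2 without any 1 of the 4 (-1.39 to -0.87). Of 17 apoptosis genes only Tnfsf10 was called, and Bcl2l1 (0.50 ± 0.30) and Mcl1 (-0.07 ± 0.19) were not.

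**Figure D4:**
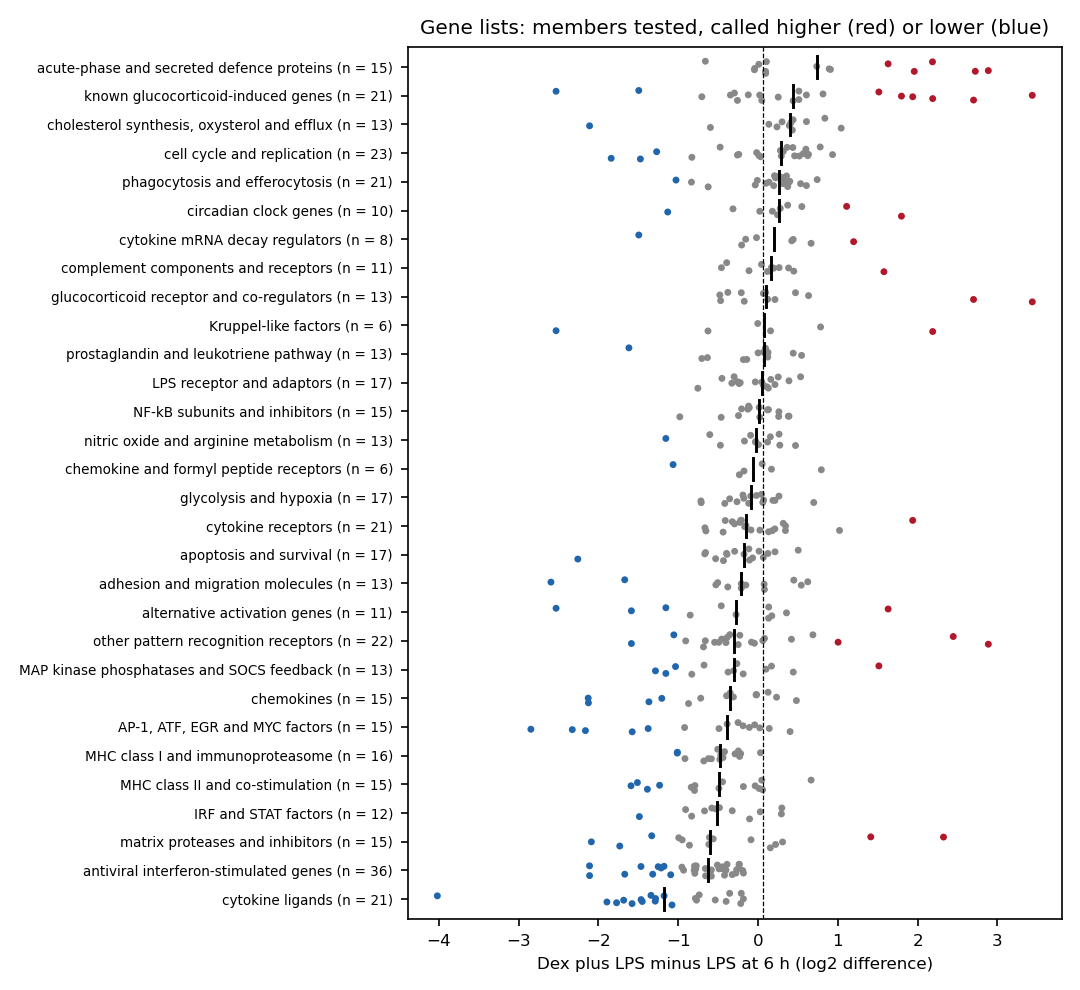
Log2 difference, Dex plus LPS minus LPS at 6 h (horizontal), of each tested gene in the gene lists, with genes called higher in red, those called lower in blue, list medians as short bars and the median of all genes as a dashed line. Cytokine ligands and antiviral genes lie wholly below 0, acute-phase and secreted defence proteins reach 2.89 (Ptx3), and the points of the LPS receptor and NF-kB lists lie between -0.98 and 0.53.

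Dex plus LPS and LPS after 3 h were measured on arrays that share no sample with those above. Levels of Tnf and Fkbp5 went against the labels of the 3 h unstimulated and Dex arrays (linear Tnf signal 62530 and 62780 where labelled unstimulated), but not against those of the 3 h LPS and Dex plus LPS arrays. All arrays of the 3 h experiment, the doubtful ones included, shared the normalization and the estimate of spread. In that fit 93 of 8032 genes were higher with Dex plus LPS (1.16%) and 183 lower (2.28%), 3.44% in all. With only the 4 arrays compared in the fit, 87 were higher and 175 lower. Of the 103 genes raised at 6 h, 101 were tested at 3 h, 92 had the same sign there, and their median was 1.21 at 6 h and 0.78 at 3 h. Of the 192 lowered, 183 were tested, 175 had the same sign, and the medians were -1.32 and -0.87. The median of all genes at 3 h was 0.04. Called at both times were 36 raised genes, 35.6% of the 6 h list and 41.4% of the 3 h list, and 75 lowered genes, 41% and 45.7%. None was called in opposite directions. Since the calls at 6 h chose these genes, a smaller median at 3 h is no test of a change with time, and time and experiment cannot be told apart.

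**Figure D5:**
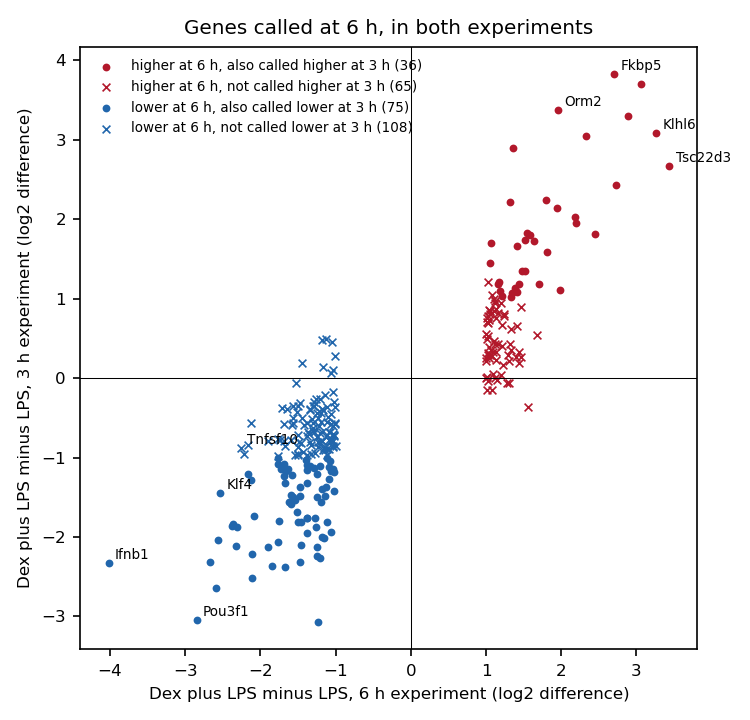
Log2 difference of Dex plus LPS minus LPS at 6 h (horizontal) and 3 h (vertical) for the genes called at 6 h and tested at 3 h, as filled points where also called at 3 h and crosses where not. Of those called higher at 6 h 92 of 101 lie above 0 at 3 h, and of those called lower 175 of 183 lie below it.

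Named genes differed in how alike the times were. Klhl6 differed by 3.08 ± 0.08 at 3 h, Per1 by 2.25 ± 0.08 and Il1rn by -2.13 ± 0.08, close to their 6 h values of 3.27, 1.80 and -1.89. Several cytokine genes called at 6 h were not called at 3 h, with Il6 at -0.58 ± 0.12, Il12a at -0.30 ± 0.08, Osm at -0.39 ± 0.08, Il10 at 0.19 ± 0.26 and the chemokine gene Ccl2 at -0.57 ± 0.11. Tnf and Il1b were saturated in both groups at 3 h. Ifnb1 differed by -2.32 ± 0.09, and Egr1 by -0.59 ± 0.07. Among antiviral genes Ifit2 stood at -2.26 ± 0.08, Mx2 at -2.31 ± 0.07 and Cmpk2 at -2.00 ± 0.09, against -1.21, -1.47 and -1.18 at 6 h, and Isg15 at -0.74 ± 0.11. Nos2 differed by -2.01 ± 0.12 at 3 h. Tlr2 (0.21 ± 0.08) and Psme2 (0.27 ± 0.08), called at 6 h, had no called change at 3 h. No test was made of the difference between times.

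Whether Dex acted differently with LPS than without was tested by the interaction term of the 6 h fit. It was called for 44 of 7791 genes (0.565%), 15 (0.193%) with a more positive and 29 (0.372%) with a more negative Dex effect under LPS. For scale, Dex without LPS raised 126 genes (1.62%) and lowered 147 (1.89%), 3.5% in all, and LPS without Dex raised 653 (8.38%) and lowered 679 (8.72%), 17.1% in all. The count ranged from 3 to 385 when 1 of the 8 arrays was left out, with 385 without Dex replicate 2 and 3 without Dex plus LPS replicate 1. Vcam1 had the largest term (-3.95 ± 0.31, adjusted p = 0.00108). It stood at 6.64 and 6.75 unstimulated, 9.30 and 8.64 with Dex alone, 9.72 and 9.75 with LPS and 8.04 and 8.09 with both, so Dex raised it without LPS and lowered it with LPS. Ptx3 (2.49 ± 0.25, adjusted p = 0.0033) was not above background on any array without LPS, where it stood at 4.76 and 4.84 unstimulated and at 5.05 and 5.33 with Dex alone, so an effect of Dex alone could not be measured. Ifnb1 had a term of -3.14 ± 0.27 (adjusted p = 0.0016), but was above background on 1 of the 4 arrays without LPS (mean 6.15 unstimulated and 5.27 with Dex), so the Dex effect without LPS was measured at the limit of detection. These 3 genes kept the call whichever of the 8 arrays was left out, which bears on the spread between arrays and not on that limit. The term of Klhl6 was 0.69 ± 0.23 (adjusted p = 0.196), that of Hp 0.33 ± 0.27 (adjusted p = 0.569) and that of Mx1 -0.56 ± 0.28 (adjusted p = 0.351). Of these, Klhl6 and Hp rose and Mx1 fell with Dex in the absence of LPS as well (2.58, 1.86 and -1.55).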

How the data were processed

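RNA of mouse bone marrow macrophages was measured on Illumina bead arrays. The deposited unnormalized table gives a bead signal (intensity) and a detection p-value for each of 25697 probes and array, from GenomeStudio per the submitters' processing notes, with its version not given in the sources used here. The authors' cubic spline table holds the same units, and the authors' processed value table holds values that track log2 signal centred per probe, with their exact scale and centring unstated and column medians of -0.197 to 0.163. A further 32 columns of per-sample values were not used.

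From the unnormalized 6 h table, background was removed with limma 3.58.1 (R 4.3.3) by the normexp method (nec, negative controls inferred from the detection p column, offset 16), followed by quantile normalization over the 8 arrays of the experiment and log2. A probe was kept where both arrays of some group had a detection p under 0.05, which left 11320 at 6 h, of which 722 carry no gene symbol. The brightest kept probe stood for its gene in the 2231 genes with several. Group means were fitted with lmFit and eBayes on all 8 arrays of each experiment, with Benjamini-Hochberg adjustment over 7791 genes, and 8032 at 3 h. A call needed an adjusted p under 0.05 and 2-fold. A lower bound of a fold takes, per array, the lowest signal above background or the probe's own, whichever is higher, and a signal at or over 80% of the array's highest was taken as saturated. The number of arrays limits the precision.

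Genes were named by rule: the 15 raised and 15 lowered most, every called member of the lists with up to 4 others of largest difference (or the brightest, where none was called), and the 5 called genes of largest interaction in each direction. Other members that were not called, such as Fos, Irf3 and Klf2, were added for contrast after their values were seen. The members and lists were chosen with earlier results of these data known. Pou3f1, Mycl, Flrt2, Adamtsl4 and F13a1, for example, are both list members and among the genes changed most. The share of calls in a list is therefore a description and no test. Arrays of the same number in different groups deviated together with correlations of -0.220 to 0.009, so the numbers were not taken to pair arrays. Probe names are those of GEO's platform annotation, and 23846 probes carry 1 symbol, 0 several and 1851 none. Promoter sequences are from RefSeq, GRCm38.p6. Figures were drawn with matplotlib 3.10.9.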

Additional observations from a re-analysis of the deposited data

Results flagged for a closer look

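Of 44 genes called, these are the 22 named in this text whose Dex effect under LPS differed from the Dex effect without LPS by the interaction test of the 6 h fit (limma, Benjamini-Hochberg adjusted). Values are log2, Dex effect with LPS minus Dex effect without LPS, with n = 2 arrays in each of 4 groups.

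A more positive effect under LPS was found for Ptx3 (2.49), Rasgrp1 (2.30), Rgcc (2.21), Radx (2.17), Mbp (1.96), Trem1 (1.96) and Tsc22d3 (1.58). Rasgrp1, a Ras activator, was itself not called between Dex plus LPS and LPS (-0.17 ± 0.19). Radx, for a single-strand DNA binding protein, went from 9.72 and 9.77 with LPS to 11.25 and 11.11 with Dex plus LPS (1.43 ± 0.18). Mbp rose by 1.46 ± 0.20.

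A more negative effect under LPS was found for Vcam1 (-3.95), Ifnb1 (-3.14), Klf4 (-2.61), Clic5 (-2.38), Mtus1 (-2.37), Gstt4 (-2.29), Mycl (-2.22), Krt16 (-2.14), Fam3b (-1.98), Tnfsf10 (-1.91), Ccl2 (-1.83), Il23a (-1.58), Fkbp5 (-1.56), Il6 (-1.49) and Ptgs2 (-1.49). Of the 22 genes 10 were not above background on any of the 4 arrays without LPS: Ptx3, Trem1, Il6, Il23a, Ptgs2, Krt16, Clic5, Fam3b, Gstt4 and Mycl. Ifnb1 and Tnfsf10 were above it on 1 of the 4. For these 12 an effect of Dex without LPS was at or below the limit of detection. Dex raised Fkbp5 by 4.26 without LPS and by 2.70 with LPS.

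Each of these 22 terms was refitted without each of the 8 arrays. Ptx3 (2.35 to 2.63), Ifnb1 (-3.33 to -2.96) and Vcam1 (-4.28 to -3.62) kept the call in all 8 fits. Mycl kept it in 7, Gstt4 in 6, Clic5 in 5, Rgcc, Radx and Rasgrp1 in 4, Mtus1 in 3, and Krt16, Klf4, Fam3b and Mbp in 2. The other 8 kept it in 1. For these last genes it was the fit without Dex replicate 2, which also gave the most interaction calls of all 8 fits. No term changed sign in these fits.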

How the results depend on the processing

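The 92 named called genes kept their direction in every alternative that gave them a value except the authors' cubic spline table (4, Ciita, Csf3, Cxcl3 and Socs2, had no value at a detection p under 0.01), and all kept their calls with only the 4 arrays compared, an intensity-dependent or robust variance, and without any unstimulated or Dex array. Leaving out an array of the 2 groups compared ended 21 to 26 of their calls, no background correction 26, the authors' processed values 23, a test against 1.5-fold 40, an offset of 50 11, no detection filter 10, median scaling 9, and the mean of a gene's probes 4. Genes higher and lower numbered 103 and 192, and with 1 array left out 37 to 110 and 106 to 196. They were 204 higher under median scaling, 66 with an offset of 50, 35 and 103 without background correction, 252 and 361 with no minimum fold, 22 and 62 tested against 1.5-fold, 33 higher in the processed value table, and 0 and 0 in the cubic spline table. Interaction calls (44) were 91, 72 and 86 under the same scaling, no correction and offset, 21 with no detection filter, 73 at a detection p under 0.01, 83 with a trended robust variance, 9 against 1.5-fold, 88 in the processed table and 0 in the cubic spline table, and 3 to 385 with 1 array left out. At 3 h (93 and 183) they were 39 and 81 both without background correction and in the processed table, 51 higher with the offset, 1364 and 1183 with no minimum fold, and 49 higher against 1.5-fold. The replicate block gave 100 higher, 188 lower and 16 interaction calls and ended the call of Dusp8 alone (adjusted p = 0.0541) among named genes. The 3 h columns carry no replicate number, so no block was fitted there. In the cubic spline table, whose match to these arrays could not be settled and where 0 genes were called and 1499 had an unadjusted p under 0.05, 40 named genes had the opposite sign (log2): Tsc22d3 -0.041, Sult1a1 -0.094, Ptx3 -0.083, F13a1 -0.10, Fkbp5 -0.033, Trem1 -0.16, Adamtsl4 -0.077, Rassf2 -0.094, Per1 -0.19, Pou3f1 0.050, Krt16 0.033, Flrt2 0.022, Igsf9 0.087, Mycl 0.055, Fam3b 0.059, Tnfsf10 0.033, Gstt4 0.022, Dusp1 -0.038, Il1a 0.095, Il1rn 0.11, Il10 0.092, Il23a 0.10, Csf3 0.030, Osm 0.085, Cxcl3 0.11, Cxcr3 0.25, Tlr2 -0.022, Socs2 0.0097, Cish 0.12, Tia1 -0.13, Mx1 0.12, Mx2 0.10, Nos2 0.042, Serpinb2 0.053, Cd86 0.048, Tapbp 0.069, Ccnd2 0.054, Cdkn1c 0.043, Per2 -0.11, Radx -0.14. The cause of these changes was not tested. Signals near background or at saturation limit what can be seen.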

Other observations

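Hba-a1, a haemoglobin gene chosen after its values were seen, stood at 9.24 (log2) on LPS replicate 1 and at 4.88 to 5.03 on the other 3 arrays compared. The summed linear level of the 4 erythroid markers was 744 on that array and 154 to 178 on the others.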
